A study of Homo sapiens with 6 samples.

Results

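The aminoacyl-tRNA synthetases are the enzymes that join each amino acid to its tRNA before protein synthesis. Human cells carry a cytosolic set for the ribosomes of the cytosol and a separate, nuclear-encoded set that is imported into mitochondria for the few proteins made there. By convention the symbol gives the amino acid letter, and the suffix 1 marks the cytosolic gene and 2 the mitochondrial gene, while FARSA and FARSB encode the subunits of the cytosolic phenylalanine enzyme. GARS1 and KARS1 are known to serve both compartments, and EPRS1 encodes a fused enzyme for glutamate and proline. Several cytosolic synthetase genes are known targets of ATF4, the transcription factor of the amino acid and integrated stress response.

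The genes described here were the 35 synthetases listed by symbol, 19 cytosolic and 16 mitochondrial, out of 24241 genes with a probe set. The rule takes them by name and uses no measured value, although the set was drawn up with earlier results of these data known. RNA came from HepG2, an established line grown from a human liver tumour, which still makes many liver proteins. On 3 arrays the cells had received 0.75 µM verteporfin for 24 hours, and on 3 arrays the solvent DMSO for the same time. Verteporfin, a porphyrin drug, serves as the light-activated agent of photodynamic therapy and has been described to disrupt the binding of YAP to TEAD factors. Whether the 3 samples of each group were grown separately is not in the labels, so p-values refer to the spread between these arrays alone, and that spread may be technical.

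Values are log2 levels made with RMA, 1 probe set per gene, and changes are verteporfin minus DMSO on that scale, tested with limma and adjusted by Benjamini-Hochberg over all 24241 genes (threshold 0.05). After RMA all 6 arrays hold the same set of values in different order, so a shift common to every transcript is invisible, and in bulk RNA fewer cells with a transcript cannot be told apart from less transcript per cell. The correlation across genes was 0.995 to 0.997 within a group and 0.969 to 0.977 between groups. The line's labelled origin was checked with 5 hepatocyte markers, which were all above the median signal of 4.83 in both groups. Even so, 4 of the 5 passed downward with verteporfin, beside 25.6% of named genes above that signal. Among the 4 were the transport proteins TTR (-2.40 ± 0.10 SE) and APOA1 (-1.64 ± 0.07) and the fetal liver protein AFP (-2.44 ± 0.14). Of 6 markers of other cell types, the leukocyte gene PTPRC, the endothelial genes PECAM1 and CDH5 and the keratin KRT5 lay below the median signal, while COL1A1 and CD68 lay above it. CD68 was higher by 0.26 ± 0.06 (SE), and the part of these markers in the results was not tested. All 35 synthetases had a mean over the 6 arrays above the median signal, with PARS2 the dimmest.

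With verteporfin 15 of the 19 cytosolic genes had a change above 0 and 12 of the 16 mitochondrial genes a change below 0. Of the 24241 named genes 12428 had a change above 0 and 11813 below 0. Of the 12257 above the median signal these counts were 6417 and 5840. Among the 19 cytosolic genes 11 rose, 1 fell and 7 did not pass the test. Among the 16 mitochondrial genes 1 rose, 5 fell and 10 did not pass. Of all named genes 14.3% passed upward and 14.3% downward, and of the 12257 above the median signal 26.3% passed upward and 25.6% downward. The share that rose was thus 57.9% of the cytosolic genes and 6.25% of the mitochondrial genes, and the share that fell was 5.26% of the cytosolic genes and 31.2% of the mitochondrial genes. The median change was 0.31 over the cytosolic genes and -0.20 over the mitochondrial genes, beside 0.0049 over all named genes and 0.02 over those above the median signal.

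The direction was the same on each verteporfin array. Set against the DMSO mean of each gene, the median over the cytosolic genes was 0.33, 0.26 and 0.33 on verteporfin replicates 1, 2 and 3. The same median over the mitochondrial genes was -0.19, -0.21 and -0.19. All 3 verteporfin arrays lay above all 3 DMSO arrays for 14 of the 19 cytosolic genes and 1 of the 16 mitochondrial genes, against 19.6% of all named genes and 31.8% of those above the median signal. They lay below all DMSO arrays for 2 cytosolic and 9 mitochondrial genes, against 19.5% and 30.9%.

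**Figure D1:**
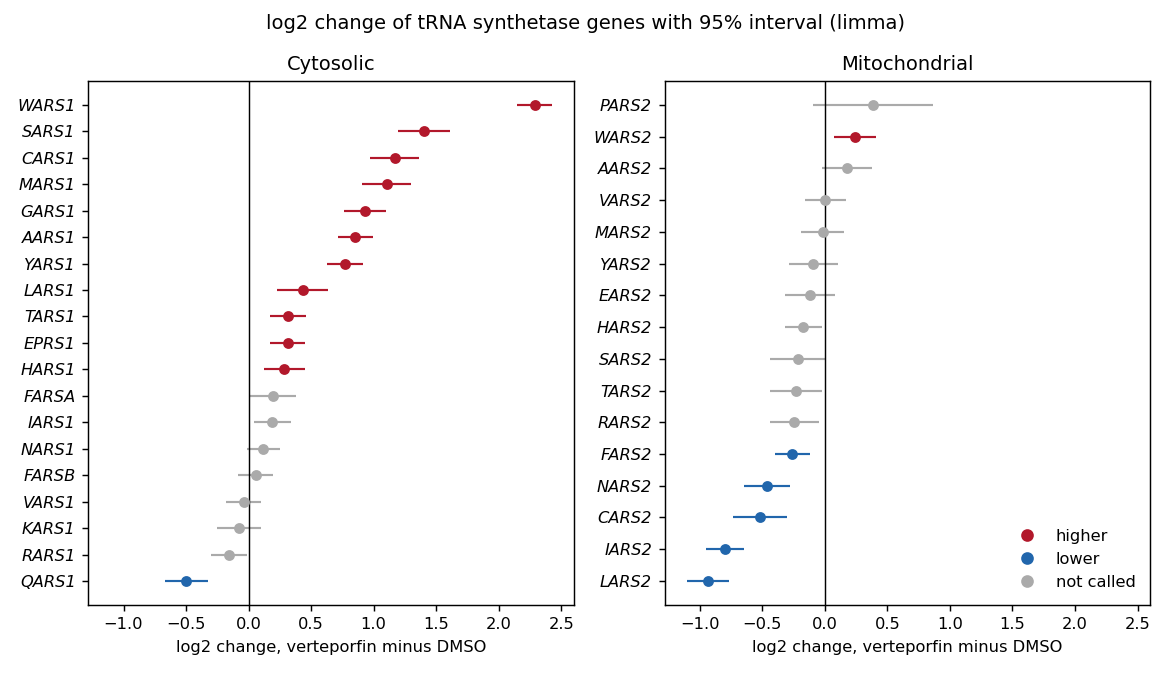
The log2 change (verteporfin minus DMSO) of each gene is shown on the horizontal axis, with cytosolic genes in the left panel and mitochondrial genes in the right, and bars give the 95% interval from limma. Red points are higher, blue points lower and grey points did not pass. WARS1 stands at 2.29 and LARS2 at -0.94.

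The tryptophan enzyme WARS1, whose gene is also known to respond to interferon gamma, had the highest change of the cytosolic set. It measured 10.79, 10.74 and 10.73 in verteporfin, against 8.49, 8.42 and 8.49 in DMSO. Every verteporfin array was more than 2 log2 units above every DMSO array, and the gene was 4.88-fold higher (2.29 ± 0.06 SE, adjusted p = 9.4e-07). The serine enzyme SARS1, which also charges the tRNA of selenocysteine, measured 9.75, 9.54 and 9.59 in verteporfin, against 8.32, 8.27 and 8.09 in DMSO. It was 2.65-fold higher (1.40 ± 0.09, adjusted p = 1.92e-05), and the groups did not overlap. The cysteine enzyme CARS1 measured 9.38, 9.16 and 9.21 in verteporfin, against 8.16, 7.99 and 8.10 in DMSO. It was 2.25-fold higher (1.17 ± 0.08, adjusted p = 3.27e-05), again with no overlap.

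The methionine enzyme MARS1, which charges both initiator and elongator tRNA, averaged 10.76 ± 0.12 in verteporfin and 9.66 ± 0.09 in DMSO (SD, n = 3). Here and below, ± gives the SD of 3 arrays after a group average, and the SE after a change or a difference of changes. At 2.15-fold (1.10 ± 0.08 SE, adjusted p = 4.58e-05) it was the remaining gene of the 4 that were at least 2-fold higher, a size passed upward by 2.71% of all named genes and 5.26% of those above the median signal. In the RefSeq table of GRCh38.p14 the MARS1 gene shares 65 bases with DDIT3, the gene of the stress factor CHOP, which was higher by 3.28 ± 0.17. Probe positions and strand were not used here, so any shared signal was not tested. The EARS2 gene likewise shares 3606 bases with GGA2, which was higher by 0.51 ± 0.07. Bases are also shared by CARS2 with ING1, FARS2 with LYRM4, YARS1 with S100PBP and MARS1 with ARHGAP9. None of these other neighbours passed.

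A second tier rose by less than 2-fold. The glycine enzyme GARS1 averaged 12.14 ± 0.10 in verteporfin and 11.21 ± 0.06 in DMSO (0.93 ± 0.07 SE). The alanine enzyme AARS1, which proofreads against serine and glycine, averaged 11.51 ± 0.03 in verteporfin and 10.66 ± 0.04 in DMSO (0.85 ± 0.06). The tyrosine enzyme YARS1 averaged 10.77 ± 0.05 in verteporfin and 9.99 ± 0.05 in DMSO (0.77 ± 0.06). In these 3 genes every verteporfin array was above every DMSO array, and their adjusted p lay between 2.97e-05 and 5.96e-05 (limma).

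The last 4 that rose moved by less than 0.5. The leucine enzyme LARS1, also described as a leucine sensor for mTORC1, rose by 0.43 ± 0.09, the threonine enzyme TARS1 by 0.32 ± 0.06, EPRS1 by 0.31 ± 0.06 and the histidine enzyme HARS1 by 0.29 ± 0.07. Their adjusted p lay between 0.00534 and 0.0183 (limma), and none of the 4 had overlapping groups. HARS1 was the least secure of them, since its call was lost without verteporfin replicate 3 (adjusted p = 0.0586) and without DMSO replicate 3 (adjusted p = 0.0579).

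QARS1, the glutamine enzyme, was the exception in the cytosolic set. It measured 10.38, 10.36 and 10.23 in verteporfin, against 10.92, 10.79 and 10.76 in DMSO. All verteporfin arrays were below all DMSO arrays, and the gene fell by 0.50 on the log2 scale (SE 0.07, adjusted p = 0.00133). The arginine enzyme RARS1 measured 10.89, 10.97 and 11 in verteporfin, against 11.13, 11.13 and 11.07 in DMSO, which did not overlap but did not pass (-0.16 ± 0.06, adjusted p = 0.112). The lysine enzyme KARS1, known to serve both compartments, measured 10.79, 10.96 and 10.82 in verteporfin, against 11.01, 10.94 and 10.87 in DMSO. Its groups overlapped (-0.08 ± 0.07), with a 95% interval from -0.25 to 0.10, so the other dual gene, GARS1, rose while KARS1 did not pass.

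The other 5 cytosolic genes that did not pass lay between -0.04 and 0.19. The isoleucine enzyme IARS1 measured 10.72, 10.67 and 10.75 in verteporfin, against 10.54, 10.57 and 10.46 in DMSO, with no overlap (0.19 ± 0.06, adjusted p = 0.0607). FARSA, the catalytic subunit of the phenylalanine enzyme, measured 10.09, 9.90 and 9.88 in verteporfin, against 9.85, 9.69 and 9.75 in DMSO (0.19 ± 0.08, adjusted p = 0.134). Its partner subunit FARSB measured 10.97, 10.98 and 10.95 in verteporfin, against 10.91, 10.97 and 10.85 in DMSO, and these overlapped (0.06 ± 0.06). The subunits of this enzyme therefore both stood below the threshold. The asparagine enzyme NARS1 measured 11.85, 11.84 and 11.84 in verteporfin, against 11.73, 11.71 and 11.73 in DMSO, a small and even difference that did not pass (0.12 ± 0.06, adjusted p = 0.177). The valine enzyme VARS1 averaged 9.15 ± 0.04 in verteporfin and 9.19 ± 0.04 in DMSO, with a 95% interval of the change from -0.18 to 0.10.

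**Figure D2:**
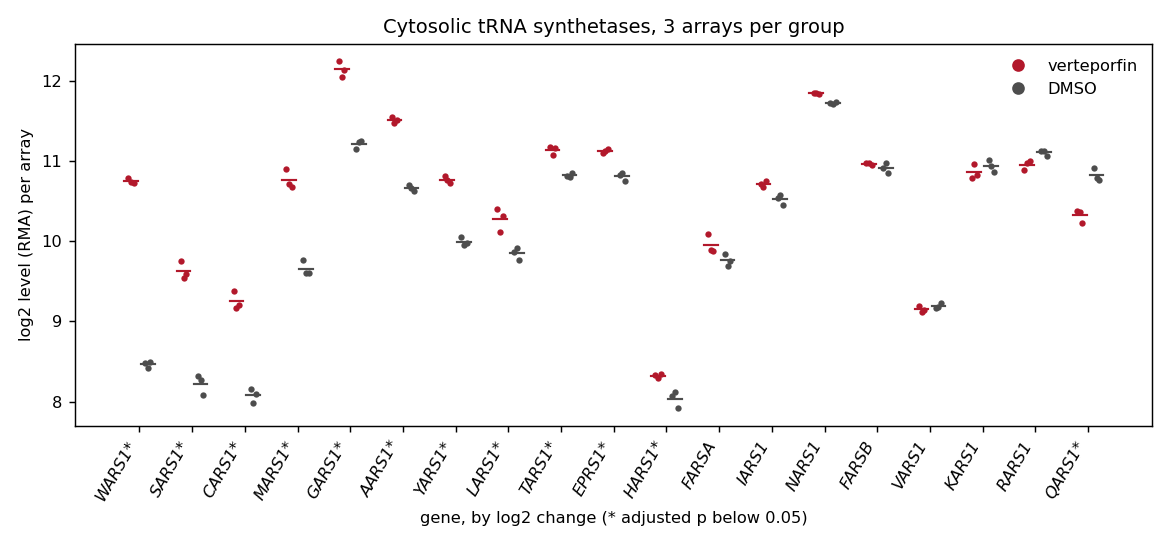
Each point is the log2 level of 1 array for the cytosolic genes, ordered by change, with verteporfin in red at the left of each pair and DMSO in grey at the right, and bars give the group mean. An asterisk marks an adjusted p below 0.05. The gap narrows from WARS1 (10.75 in verteporfin, 8.47 in DMSO) and turns over at QARS1 (10.32 in verteporfin, 10.82 in DMSO).

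In the cytosol 7 of the measured enzymes are known to sit in the multisynthetase complex, a scaffolded assembly. Of these 7, 3 rose (MARS1, LARS1 and EPRS1), 1 fell (QARS1) and 3 did not pass (IARS1, RARS1 and KARS1), with a median change of 0.19. Of the 12 cytosolic genes outside it, 8 rose, 0 fell and 4 did not pass, with a median of 0.54. The difference between these subsets was not tested. The scaffold gene AIMP1 averaged 10.98 ± 0.02 in verteporfin and 11.14 ± 0.06 in DMSO and did not pass (-0.16 ± 0.06, adjusted p = 0.1004). Synthetases also fall in 2 unrelated structural classes, and among cytosolic genes 5 of 9 in class I and 5 of 9 in class II rose, with EPRS1 holding a domain of each. The counts by complex and by class stand beside 26.3% upward and 25.6% downward among genes above the median signal.

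The promoters of the cytosolic genes were searched for the core of the C/EBP-ATF response element, TGATGNAA, through which ATF4 is known to act. The windows, from RefSeq on GRCh38.p14, ran from 250 bases before to 50 after each start, both strands were read, and a gene with more than 1 start counted once. A window was found for 30 of the 35 genes, leaving out LARS1, VARS1, YARS1, AARS2 and VARS2. The core was present in 7 of 16 cytosolic genes and 1 of 14 mitochondrial genes, against 4.46% of all 27305 genes with a window. The matches are shown with 11 bases on each side in the direction of transcription, so that their sequence context and their place near the start can be read, and capitals mark the core or its reverse complement TTNCATCA.
AARS1: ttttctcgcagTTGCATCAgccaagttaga
CARS1: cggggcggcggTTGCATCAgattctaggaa
GARS1: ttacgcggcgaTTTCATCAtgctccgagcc
MARS1: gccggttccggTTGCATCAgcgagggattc
TARS1: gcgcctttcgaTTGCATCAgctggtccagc
IARS1: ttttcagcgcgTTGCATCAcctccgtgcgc
NARS1: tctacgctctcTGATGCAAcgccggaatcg
YARS2: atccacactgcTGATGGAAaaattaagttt

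The first 5 of these genes rose and the other 3 did not pass. AARS1 lies at chr16:70289675-70289704 (minus strand), CARS1 at chr11:3057407-3057436 (minus), GARS1 at chr7:30594834-30594863 (plus), MARS1 at chr12:57488053-57488082 (plus) and TARS1 at chr5:33440956-33440985 (plus). IARS1 lies at chr9:92293692-92293721 (minus), NARS1 at chr18:57621804-57621833 (minus) and YARS2 at chr12:32756076-32756105 (minus). The search fixes all letters of the core but the N. In CARS1, MARS1, TARS1, IARS1 and NARS1 it began within 15 bases of a RefSeq start. In AARS1 it began at position -187 from the start. Of the 9 cytosolic genes that rose and had a window, 5 held the core, as did 2 of the 6 that did not pass and 0 of 1 that fell. WARS1 and SARS1, with the highest changes, had no match in these windows, which says only that the letters are not there.

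The other motifs were the E-box CACGTG, the NRF1 motif (GCGCA and GCGC with 1 base between them) and the endoplasmic reticulum stress element (CCAAT and CCACG with 9 bases between them). The E-box was present in 1 of 16 cytosolic and 3 of 14 mitochondrial genes, against 8.77% of all genes. The NRF1 motif, bound by a factor known for nuclear genes of mitochondrial proteins, was present in 3 of 16 cytosolic and 3 of 14 mitochondrial genes, against 6.98%. The stress element was present in 0 of either set, against 0.0916%. No match of one motif overlapped a match of another, and these matches are descriptions of sequence, not of binding.

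The 5 mitochondrial genes that fell were 31.2% of the set, near the 25.6% of named genes above the median signal that passed downward. The largest falls were those of the leucine and isoleucine enzymes. LARS2 measured 7.63, 7.51 and 7.70 in verteporfin, against 8.59, 8.57 and 8.48 in DMSO. It was 1.91-fold lower (-0.94 ± 0.07 SE, adjusted p = 5.01e-05). IARS2 measured 9.61, 9.72 and 9.78 in verteporfin, against 10.51, 10.50 and 10.50 in DMSO, and was 1.74-fold lower (-0.80 ± 0.07, adjusted p = 6.63e-05). In both genes the groups were separated by several times their own range.

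The mitochondrial cysteine enzyme CARS2 measured 7.92, 8.25 and 8.09 in verteporfin, against 8.68, 8.59 and 8.56 in DMSO. It was 1.43-fold lower (-0.52 ± 0.09, adjusted p = 0.00344), and its groups did not overlap. The asparagine enzyme NARS2 averaged 8.33 ± 0.02 in verteporfin and 8.79 ± 0.13 in DMSO (-0.46 ± 0.08, adjusted p = 0.00297). The phenylalanine enzyme FARS2, a single chain in mitochondria, averaged 7.06 ± 0.03 in verteporfin and 7.32 ± 0.05 in DMSO (-0.26 ± 0.06, adjusted p = 0.0125). The FARS2 call was lost in 5 of 14 alternatives, among them without DMSO replicate 1 (adjusted p = 0.0502) and under trend and robust estimation on all 6 arrays (adjusted p = 0.0502).

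WARS2, the mitochondrial tryptophan enzyme, was the only mitochondrial gene of the 16 that passed upward. It measured 8.82, 8.78 and 8.86 in verteporfin, against 8.56, 8.69 and 8.48 in DMSO (0.24 ± 0.07, adjusted p = 0.0431). The groups did not overlap, but the call was lost in 9 of 14 alternatives. It did not pass without verteporfin replicate 1 (adjusted p = 0.0977), 2 (adjusted p = 0.0645) or 3 (adjusted p = 0.124), nor without DMSO replicate 1 (adjusted p = 0.121) or 3 (adjusted p = 0.141).

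Of the 10 mitochondrial genes that did not pass, 4 had verteporfin arrays all below the DMSO arrays. Such groups were seen in 30.9% of named genes above the median signal, called or not. The share among uncalled genes was not measured. RARS2 measured 10.0, 10.02 and 10.05 in verteporfin, against 10.27, 10.42 and 10.12 in DMSO (-0.24 ± 0.08, adjusted p = 0.0682), and it passed without DMSO replicate 3 (adjusted p = 0.0262). TARS2 measured 7.86, 7.95 and 7.93 in verteporfin, against 8.26, 8.21 and 7.96 in DMSO (-0.23 ± 0.09, adjusted p = 0.0973), and it too passed without DMSO replicate 3 (adjusted p = 0.0175). That DMSO array was the lowest of its group in both genes. SARS2 measured 7.99, 7.97 and 7.71 in verteporfin, against 8.19, 8.01 and 8.12 in DMSO (-0.22 ± 0.10, adjusted p = 0.146), and without verteporfin replicate 3 its change was -0.13. HARS2 measured 7.04, 7.13 and 7.11 in verteporfin, against 7.21, 7.27 and 7.31 in DMSO (-0.17 ± 0.06, adjusted p = 0.0873).

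In the remaining 6 mitochondrial genes the groups overlapped. EARS2, which charges the glutamine tRNA with glutamate before an amidotransferase corrects it, measured 7.32, 7.05 and 7.28 in verteporfin, against 7.41, 7.29 and 7.30 in DMSO (-0.12 ± 0.09). YARS2 measured 6.75, 6.68 and 6.95 in verteporfin, against 6.91, 6.83 and 6.91 in DMSO (-0.09 ± 0.08). MARS2 measured 8.07, 8.23 and 8.29 in verteporfin, against 8.23, 8.20 and 8.20 in DMSO (-0.02 ± 0.07), with a 95% interval from -0.19 to 0.15. These 3 genes had no difference larger than the spread between arrays. VARS2 averaged 7.53 ± 0.07 in verteporfin and 7.53 ± 0.08 in DMSO, with a 95% interval from -0.16 to 0.17. AARS2 measured 6.83, 6.61 and 6.73 in verteporfin, against 6.53, 6.67 and 6.45 in DMSO (0.17 ± 0.09, adjusted p = 0.204). The proline enzyme PARS2 measured 6.08, 5.17 and 5.42 in verteporfin, against 5.23, 5.21 and 5.08 in DMSO (0.38 ± 0.21, adjusted p = 0.248). Its verteporfin replicate 1 stood apart from the other 5 arrays, and without it the change was 0.12.

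**Figure D3:**
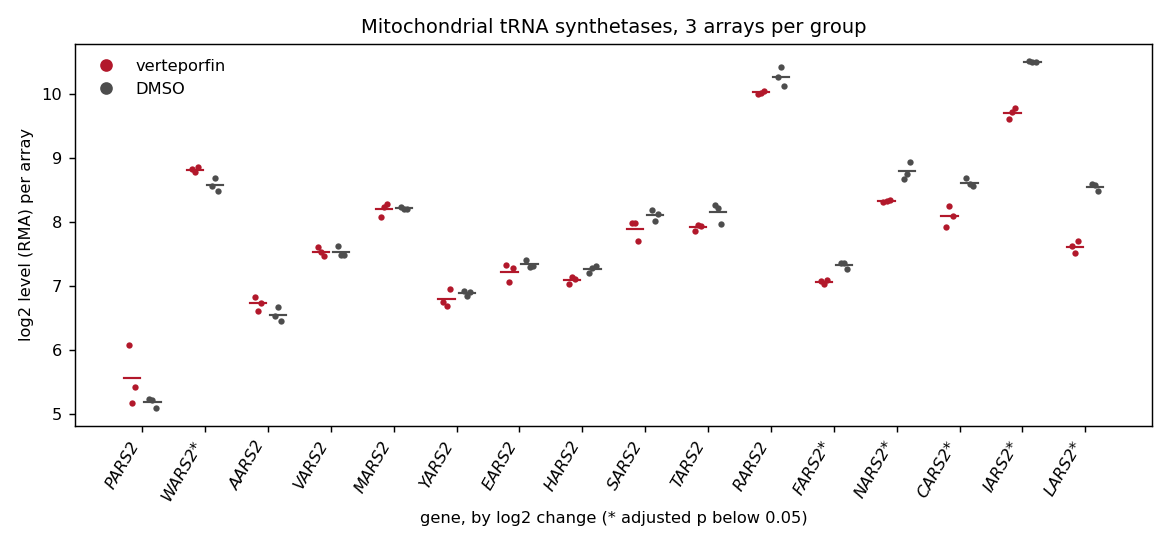
Each point is the log2 level of 1 array for the mitochondrial genes, ordered by change, with verteporfin in red at the left of each pair and DMSO in grey at the right, and bars give the group mean. An asterisk marks an adjusted p below 0.05. The verteporfin points of LARS2 (mean 7.61 in verteporfin, 8.55 in DMSO) and IARS2 lie clear below the DMSO points, and PARS2 shows the widest spread, with 1 verteporfin array at 6.08.

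Whether enzymes for the same amino acid moved apart was asked for 17 pairs of a cytosolic and a mitochondrial gene covering 16 amino acids, in which FARS2 and EPRS1 each appear in more than 1 pair. The change of the cytosolic gene minus that of its partner was positive in 15 pairs, and its median over all 17 pairs was 0.58. In 14 of the 15 the per-array difference between partners did not overlap between groups. Of single genes above the median signal, 31.8% did not overlap upward and 30.9% downward. The share among pairs of other genes was not measured. With 3 arrays a side, the smallest two-sided p of an exact permutation test is 0.1, and these 14 pairs had it. In 2 pairs, CARS1 with CARS2 and LARS1 with LARS2, the cytosolic gene rose and the mitochondrial gene fell. In 8 pairs the cytosolic gene rose while its partner did not pass. Both pairs of EPRS1 are among these 8, and in that with PARS2 the uncalled partner had the larger change (0.38 against 0.31).

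The widest gap was in tryptophan, where the change of WARS1 exceeded that of WARS2 by 2.05 ± 0.09 (SE, n = 3 arrays per group). Cysteine followed at 1.69 ± 0.17, serine at 1.62 ± 0.13, leucine at 1.37 ± 0.06, methionine at 1.12 ± 0.14 and isoleucine at 0.99 ± 0.06. For isoleucine and asparagine (0.58 ± 0.08) the gap came with a called fall of the mitochondrial gene and no call of the cytosolic gene, although IARS1 (adjusted p = 0.0135) and NARS1 (adjusted p = 0.0282) passed upward under trend and robust estimation, and IARS1 also where only genes above the median signal were tested (adjusted p = 0.0451). For methionine it came with a called rise of MARS1 and a MARS2 level within the spread. For tyrosine (0.87 ± 0.10) and alanine (0.68 ± 0.08) the cytosolic gene was likewise called and the mitochondrial gene was not.

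The smaller gaps were threonine at 0.55 ± 0.12, histidine at 0.46 ± 0.09, FARSA against FARS2 at 0.45 ± 0.08, EPRS1 against EARS2 at 0.43 ± 0.10 and FARSB against FARS2 at 0.32 ± 0.03. In 3 pairs no gap was seen beyond the spread. The arginine pair differed by 0.09 ± 0.07 (exact permutation p = 0.3), the valine pair by -0.04 ± 0.07 (exact permutation p = 0.6) and EPRS1 against PARS2 by -0.07 ± 0.28 (exact permutation p = 1.0). The last of these turned to 0.20 without verteporfin replicate 1, the PARS2 array that stood apart.

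**Figure D4:**
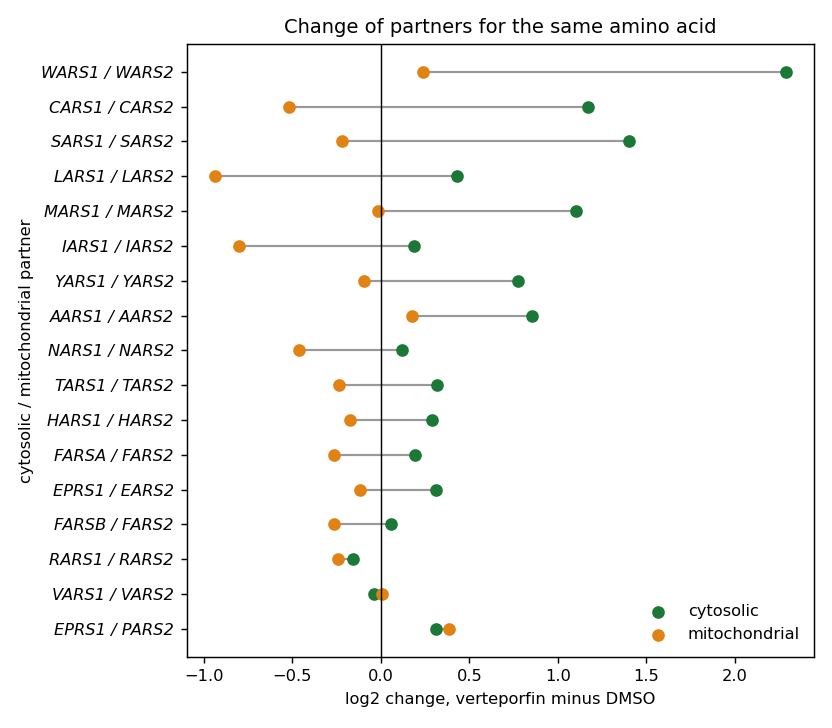
Each row joins the log2 change (verteporfin minus DMSO, horizontal axis) of a cytosolic gene in green and its mitochondrial partner for the same amino acid in orange, ordered by the gap. The green point lies to the right in 15 of 17 rows, from 0.09 apart in the arginine pair to 2.05 in the tryptophan pair.

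HARS1 and HARS2 are neighbours in the genome that run in opposite directions from a shared start region. In RefSeq on GRCh38.p14 the starts are 84 bases apart from edge to edge, at chr5:140691371-140691454, and the sequence between them is shown in the direction of HARS2 because it is common to both promoters.
HARS1 and HARS2: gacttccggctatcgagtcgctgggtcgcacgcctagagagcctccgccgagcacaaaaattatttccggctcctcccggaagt

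This stretch holds 59.5% G and C and 0 matches to the 4 motifs searched. HARS1 measured 8.33, 8.30 and 8.34 in verteporfin, against 8.07, 8.12 and 7.92 in DMSO, while HARS2, given above, was lower on each verteporfin array than on any DMSO array without passing the test. The difference of HARS1 over HARS2 was 1.29, 1.16 and 1.23 in verteporfin, against 0.87, 0.84 and 0.60 in DMSO, with no overlap. The genes are close in sequence, and probe signal shared between the copies was not tested.

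Other genes that handle charged tRNA were read from short lists. SEPSECS, which completes selenocysteine on its tRNA after SARS1 has charged it with serine, averaged 8.65 ± 0.08 in verteporfin and 7.90 ± 0.13 in DMSO (0.75 ± 0.08 SE, adjusted p = 0.000322), and TARS3, a second cytosolic threonine enzyme, did not pass (-0.19 ± 0.13). Of 3 genes measured from the tRNA proofreading list, 2 rose and 0 fell, and DTD2 did not pass (-0.21 ± 0.07, adjusted p = 0.0590). Those that rose were DTD1, which removes D-amino acids from tRNA (0.44 ± 0.08), and YRDC (1.27 ± 0.07), which is known for the threonylcarbamoyl modification of tRNA and not for proofreading. Of 4 cytosolic elongation factors measured 2 rose, EEF2 (0.34 ± 0.06) and EEF1B2 (0.30 ± 0.09), and 0 fell, with EEF1D at -0.07 ± 0.08. These lists are short, and 26.3% of genes above the median signal passed upward.

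On the mitochondrial side, 1 of 4 genes that finish or modify charged tRNA fell and 0 rose, a share near the 25.6% of genes above the median signal that passed downward. It was GATB (-0.25 ± 0.08, adjusted p = 0.0483), a subunit of the amidotransferase that converts the product of EARS2. Another subunit, QRSL1 (0.16 ± 0.08), and GATC (-0.10 ± 0.07) did not pass. Of 9 mitochondrial translation factors 3 rose and 3 fell. The elongation factor TUFM (-0.44 ± 0.06), its exchange factor TSFM (-0.27 ± 0.06) and the translocation factor GFM1 (-0.27 ± 0.08) fell, and the release factors MTRF1 (0.36 ± 0.06) and MTRFR (0.73 ± 0.10) and the ribosome recycling factor MRRF (0.71 ± 0.18) rose. Of genes above the median signal 26.3% passed upward and 25.6% downward, and the list median was -0.12. Of the 9 factors, 8 lay above that signal.

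Of 7 amino acid response genes 6 rose and 1 fell, with a median of 1.93. All 7 lay above the median signal, where 26.3% of named genes passed upward and 25.6% downward. The list was chosen with earlier results of these data known. Those with the smallest adjusted p were SESN2 (3.15 ± 0.11), ASNS (2.05 ± 0.07) and TRIB3 (1.93 ± 0.07). ATF4 itself, named after its value was seen, averaged 10.44 ± 0.13 in verteporfin and 9.55 ± 0.10 in DMSO (0.88 ± 0.09). The gene that fell, EIF2AK4 (-0.68 ± 0.07), encodes GCN2, the kinase that senses uncharged tRNA. ASNS makes asparagine, and NARS1, which joins asparagine to its tRNA, did not pass.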

How the data were processed

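Total RNA of 6 HepG2 samples was hybridised to Affymetrix arrays after biotin labelling, per the labels' protocols. The deposited values are log2 levels made by the authors with RMA, per the submitters' processing notes; its version, the probe set definitions and the array model are not stated there or in the labels. Of 25582 probe sets, 24244 had 1 gene symbol in the platform annotation, 0 had several and 1338 had none. The brightest probe set stood for a gene, leaving 24241. The test was limma's (version 3.58.1, R 4.3.3; lmFit and eBayes, two-sided, no covariate), and SE is the moderated standard error. Pair differences have the SE of per-array differences. The limma fit was tried on simulated data with changes of known size, and the other steps were not. No scanner files were used, and precision is limited by the number of arrays.

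All 35 members are named. Arrays are listed for the 3 highest and 3 lowest of each compartment and for uncalled genes with a called partner. Outside this rule they are listed for RARS2 and HARS1. Of other lists, up to 3 genes with the smallest adjusted p (2 where none passed) are named. All 6 markers of other cell types, ATF4, EIF2AK4, TSFM, GFM1 and MRRF were added after their values were seen. So were the overlapping genes GGA2, DDIT3, ING1, LYRM4, S100PBP and ARHGAP9. Members, lists, pairs and motifs were chosen with earlier results of these data known. Correlations of deviations between same-numbered arrays of the groups lay between -0.109 and -0.0116, so replicate numbers were not treated as pairs. Alternatives were a replicate block, arrays left out, a signal filter, trend and robust estimation, cyclic loess and averaged probe sets. Averaging probe sets left the log2 change of each member as it was. With 24244 named probe sets for 24241 genes, that alternative could hardly move a call.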

Additional observations from a re-analysis of the deposited data

How the results depend on the processing

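Across 14 alternatives the count of cytosolic genes that rose was 7 to 13, and it stood at 8 and 7 without replicate 1 and without replicate 3 of both groups. The count that fell was 1 to 2, with 2 under trend and robust estimation, where RARS1 was added. The count of mitochondrial genes that fell was 4 to 7. The count that rose was 0 with the replicate block and 0 with cyclic loess, both through the loss of WARS2, and 0 to 1 with arrays left out. The cytosolic median lay between 0.27 and 0.33. The mitochondrial median was -0.23 with cyclic loess and -0.22 to -0.16 with arrays left out. Calls over the 24241 named genes ranged from 5028 to 7054, and 7161 of 25579 entries were called with probe sets averaged and those without a symbol kept. The replicate block changed no other call among the 35 genes and gave 11 cytosolic genes higher and 5 mitochondrial genes lower; the same-numbered arrays share only a number. Fewer arrays leave fewer degrees of freedom, by construction.

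Calls were lost for EPRS1 in 1 alternative, LARS1 and TARS1 in 2 each, HARS1 in 4, FARS2 in 5 and WARS2 in 9. Calls were gained for RARS2 in 3, IARS1 and TARS2 in 2 each, and HARS2, NARS1 and RARS1 in 1 each. The sign of uncalled genes turned for VARS2 (-0.029 with cyclic loess, -0.032 to 0.051 with arrays left out), MARS2 (-0.069 to 0.056 with arrays left out) and the pair EPRS1 and PARS2 (-0.27 to 0.20, positive without verteporfin replicate 1). The number of pairs with the higher change in the cytosolic gene was 15 or 16. Why each value moved was not tested. The background correction and any slide effect could not be varied with these values.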
